A study of Rattus norvegicus with 8 samples.

Results

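Loci of the deposited gene table whose symbol ends in -ps, with or without a number, were taken as pseudogene loci. The rule found 45 of 19120 gene loci. For each, the parent was the locus whose symbol is the text before -ps, and it served only as a comparison. The 45 loci carry 34 parent names, of which 30 had a locus in the table, so 39 pseudogene loci could be set beside a parent and 6 could not (the parent names Dppa3, Pbp, Rpl38 and Sec61 had none). RefSeq (GRCr8), used here for names and gene types, lists 41 of the 45 symbols as pseudogenes, of which Zfp780b-ps1 alone is listed as transcribed. It has no entry under the 4 others, Dppa3-ps1, Hmgb1-ps4, Rpl36a-ps2 and Trub2-ps2. All 30 parents are protein coding in RefSeq. For 3 pseudogene symbols (Rps27a-ps12, Sec61g-ps1 and Ybx1-ps3) and for the parent Rpl37, RefSeq's entry lies on another chromosome than the locus in the table, so the identity of these 4 loci is uncertain.

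Male Wistar rats, 12 to 13 weeks old, had titanium root-form implants placed in the femoral shafts, and RNA came from the bone within 1 mm of the implant at 10 days. The 4 hyperlipidemic libraries are from rats on a high-fat diet for 8 weeks, and the 4 normal libraries are from rats on a normal diet for the same time. All rats carried implants in both femora, and the libraries were depleted of ribosomal RNA. The values are FPKM, fragments scaled to transcript length and library size, so levels are per length. Reads were pairs of 150 bp, and the shortest pseudogene locus spanned 124 bp. Whether the scaling holds alike for such short loci and for longer parents was not tested. Levels of a copy relative to its parent therefore compare FPKM as deposited and are not shown to be ratios of RNA amounts. The files used here hold FPKM and no counts, so the depth is unknown and counting intervals are not printed. Since no label ties a library to its own animal, the p-values cover the spread of these 8 libraries and no more.

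Processed pseudogenes arise when the spliced messenger RNA of a gene is copied back into DNA and inserted elsewhere in the genome. The copy lacks introns and the promoter of its parent, and it usually gathers changes that end its reading frame. Genes with abundant short transcripts, above all those of the cytosolic ribosome, have left many such copies in mammalian genomes. A copy keeps much of its parent's sequence, so a short read from the parent can align to the copy and the reverse. The alignment of such reads is not described in the sources used here, and every pseudogene value below may hold reads of the parent or of another copy. A locus inside another gene may in the same way hold reads of that gene.

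The promoters of 3 ribosomal protein parents are shown to mark which letters a processed copy can carry. The parents are Rpl26, with 2 copies that fell, Rps27a, with the most copies found here, and Rps21, the 1 parent that rose. No result below rests on these promoters. Each is given 5′ to 3′ from RefSeq (GRCr8), with 50 bases before the annotated transcript start in lower case and the first 30 bases of the transcript in capitals. The capitals belong to the transcript that a processed copy starts from, and the lower-case letters lie outside it. Rpl26 reads on the plus strand at chr10:54109642-54109721, Rps21 on the plus strand at chr3:187723988-187724067, and Rps27a, from the first of 2 annotated starts, on the minus strand at chr14:107488912-107488991.
Rpl26: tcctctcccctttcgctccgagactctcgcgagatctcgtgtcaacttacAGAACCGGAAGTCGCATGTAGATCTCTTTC
Rps21: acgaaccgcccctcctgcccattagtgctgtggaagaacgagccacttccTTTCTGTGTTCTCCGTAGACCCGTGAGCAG
Rps27a: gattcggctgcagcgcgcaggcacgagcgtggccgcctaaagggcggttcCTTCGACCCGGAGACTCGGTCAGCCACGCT
The 250 bases before the start held 13 CG pairs at Rpl26, 18 at Rps21 and 18 at Rps27a, against a median of 5 over 33469 promoter windows of that length. At least as many CG pairs as at Rpl26 were found in 29.4% of all windows, and at least as many as at Rps21 in 20.1%. Of the 30 parents, 26 had a promoter window, and 0 of the 45 pseudogene loci had one. The windows lie before annotated transcript starts, so these counts describe the annotation and not whether a copy is transcribed.

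Some features of whole libraries touch these loci. Loci listed at 0 numbered between 2347 and 5697 in hyperlipidemic libraries and between 2391 and 6807 in normal libraries. In normal replicate 1 the parents Hmgb1, Zfp780b, Trub2 and Polr2h were listed at 0, as were Rps15-ps2 and Dtx2-ps1, which were above 0 in the 3 other normal libraries. A value of 0 is therefore a listing and not shown to be an absence of transcript. Of the gene FPKM, 64.6% ± 4.43 lay at loci spanning up to 1000 bp in hyperlipidemic libraries and 75.6% ± 7.72 in normal libraries (SD, n = 4 each), with overlap between the groups.

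The pseudogene loci were short and by FPKM mostly faint, and a few had FPKM as high as those of well-expressed genes. Their spans ran from 124 to 14833 bp with a median of 598 bp, and 38 of 45 were of up to 1000 bp. The pseudogene locus was shorter than the parent locus in 38 of 39 pairs, the exception being Zfp780b-ps1. They lay on 18 chromosomes, and 4 lay on the chromosome of their parent. The span of 11 overlapped another locus of the table. Of the 45, 24 were above 0 in all 8 libraries. The 6 most abundant, Rpl26-ps2, Rps27a-ps1, Rpl6-ps1, Rpl38-ps3, Rps4x-ps9 and Hmgb1-ps4, held 68.7% of the summed mean FPKM, and 5 of these 6 are copies of ribosomal protein genes. The table gives 35 of the loci an identifier of transcript assembly and 10 an Ensembl identifier, and the highest mean among those 10 was 0.541 FPKM. On 8-library means, the pseudogene locus stood under 1% of its parent in 8 pairs, at 1 to 10% in 12, at 10 to 100% in 16 and above the parent in 3 (Zfp780b-ps1, Hmgb1-ps4 and, only with normal replicate 1 included, Hmgb1-ps3).

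**Figure D1:**
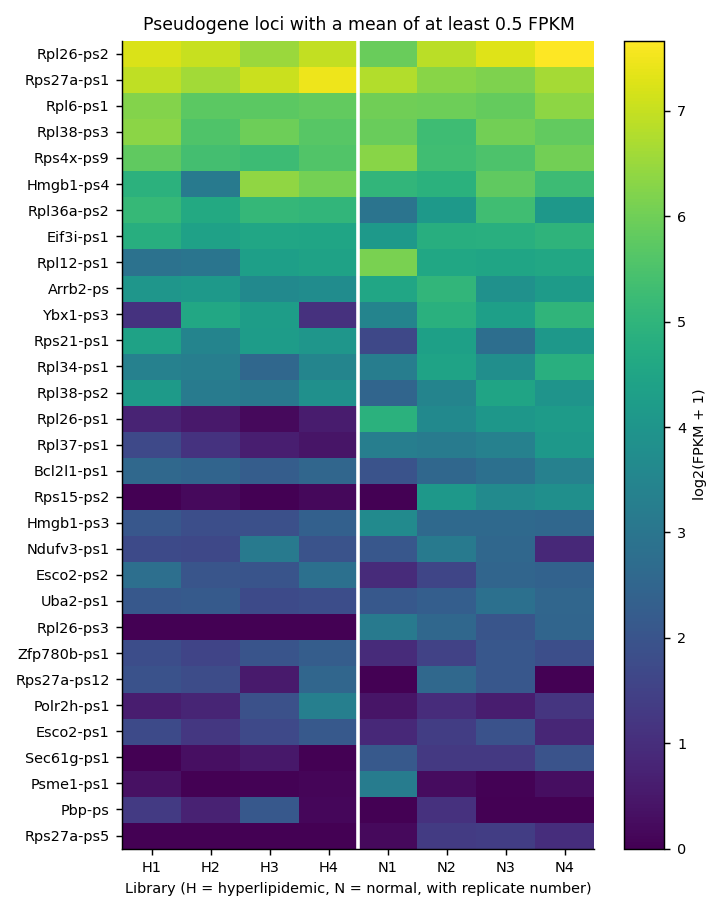
Level of each of the 31 pseudogene loci with a mean of at least 0.5 FPKM, as log2(FPKM + 1) by colour, in each library (columns, hyperlipidemic left of the white line and normal right of it, with replicate number), ordered by mean level. Rpl26-ps1, Rpl37-ps1 and Rpl26-ps3 are dark in all 4 hyperlipidemic libraries and lighter in all 4 normal ones, while the rows at the top keep a like shade on both sides.

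The comparison of hyperlipidemic with normal bone asks which of these loci changed with the diet. Of 31 loci with a mean of at least 0.5 FPKM, 3 fell and 0 rose in hyperlipidemic bone (limma on log2(FPKM + 1), Benjamini-Hochberg adjusted p under 0.05 over all 13742 loci tested), while 1.24% of all loci tested fell and 0.146% rose. The 3 that fell were Rpl26-ps1, Rpl26-ps3 and Rpl37-ps1, copies of genes for proteins of the large ribosomal subunit. At an unadjusted p under 0.05, 9 were lower and 1 was higher. The share of all loci or of short loci at that threshold was not counted, so this is no result about pseudogene loci. The 14 other loci lay under the filter and were not tested. Since a locus passes the filter more easily when it is high in a group, the counts describe only the 31 loci that passed. In bulk RNA, fewer cells of a type and less RNA per cell cannot be told apart.

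The share that fell was close to that of short loci in general. Among pseudogene loci of up to 1000 bp, 3 of 25 tested fell, or 12.0%, against 8.54% of the 1850 loci of that length tested and 0.109% of the 11892 longer ones. Log2 changes lay below 0 at 21 of the 31 pseudogene loci, with a median of -0.17. Over all loci tested 35% lay below 0 with a median of 0.18, and over loci of up to 1000 bp 58.7% with a median of -0.24. Clone-named loci of up to 300 bp had a median of -0.29 and 10.5% of them fell, and longer ones of up to 1000 bp had a median of -0.38 and 8.79% fell. By median, the pseudogene loci thus lay nearer to short loci than to all loci. Rescaling the libraries moved the median of all loci to 0.05 (median-of-ratios or quantile normalization), and the median of the pseudogene loci relative to it was -0.34 as deposited, -0.40 after median-of-ratios scaling and -0.30 after quantile normalization. When hyperlipidemic and normal values were compared library by library, 7 of the 31 lay lower without overlap and 0 higher, against 3.75% and 4.19% of all loci tested, while of tested loci of up to 1000 bp 16.8% lay lower and 3.3% higher without overlap. In the authors' deposited table, 8 of the 45 were marked as down and 0 as up, against 2.83% and 1.73% of all loci. Of the 38 spanning up to 1000 bp, 6 were marked as down in that table, or 15.8%, against 13.4% of all loci of that length. Its q-value was under 0.05 at 0 of the 45 and at 20 of all loci.

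**Figure D2:**
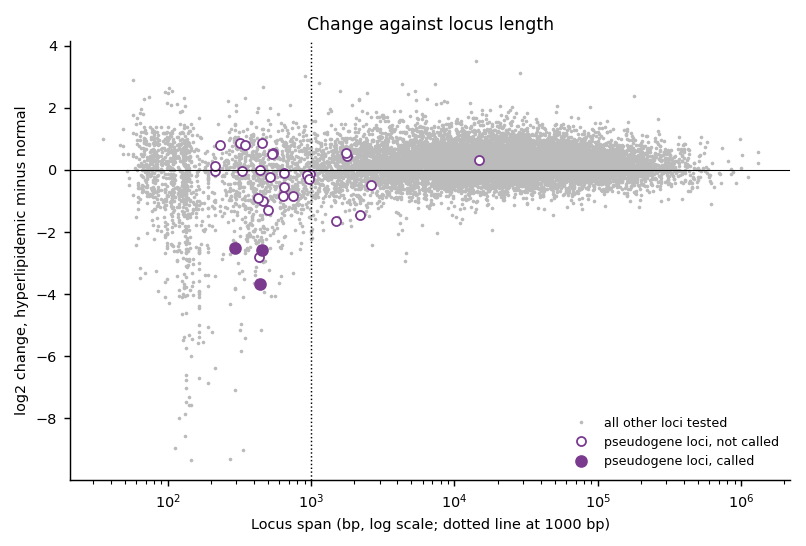
Log2 change, hyperlipidemic minus normal, of FPKM + 1 for each locus tested (vertical axis) against the span of the locus in bp on a log axis, with the dotted line at 1000 bp. Grey points are all other loci, open circles pseudogene loci that were not called and filled circles those that were: the 3 called loci lie left of the line, at log2 changes of -2.50 to -3.68, among many grey points that are as low or lower.

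The copies of Rpl26 differed widely in level. Rpl26 is a protein of the large ribosomal subunit, and its 3 copies found here lie on different chromosomes. Rpl26-ps1 (MSTRG.117770, chromosome 7, 121942684 to 121943121, Rnor_6.0, 438 bp) measured 0.691, 0.440, 0.144 and 0.498 FPKM in hyperlipidemic replicates 1 to 4, against 28.9, 11.3, 15.5 and 17.7 FPKM in normal replicates 1 to 4. All hyperlipidemic values were under 1 and all normal values above 10. It fell to a mean of 0.443 ± 0.226 FPKM in hyperlipidemic bone, against 18.3 ± 7.51 FPKM in normal bone (SD, n = 4 each), a 41.4-fold difference between means (log2 change -3.68, SE 0.314, 95% interval -4.38 to -2.99, limma adjusted p = 0.000156). The span of Rpl26-ps1 lies inside the locus of Tnrc6b, a gene of microRNA silencing. Tnrc6b averaged 10.3 ± 2.40 FPKM in hyperlipidemic and 7.10 ± 3.19 FPKM in normal bone (log2 change 0.54, limma adjusted p = 0.490). Whether the span falls on an exon or an intron of Tnrc6b was not analysed here.

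Rpl26-ps3 (MSTRG.59595, chromosome 19, 9436210 to 9436662, 453 bp) was listed at 0 in all 4 hyperlipidemic libraries, against 7.98, 4.86, 3.07 and 4.68 FPKM in the normal ones (log2 change of FPKM + 1, -2.56, SE 0.316, limma adjusted p = 0.00200). It overlaps no other locus of the table. Among tested loci, 0.56% of all and 4.05% of those of up to 1000 bp were likewise at 0 in every hyperlipidemic and above 0 in every normal library. The smallest FPKM above 0 at loci of 400 to 500 bp was between 0.0113 and 0.0614 in hyperlipidemic and between 0.000881 and 0.0227 in normal libraries, so the normal values of Rpl26-ps3 lie well above the lowest level the table holds at that length.

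The most abundant pseudogene locus of all was the third copy, Rpl26-ps2 (MSTRG.1718, chromosome 1, 31527646 to 31528083, 438 bp), and it did not pass. It measured 150.3, 129.7, 90.0 and 122 FPKM in hyperlipidemic libraries, against 58.8, 117, 155 and 202 FPKM in normal ones. The normal values spanned those of the other group (log2 change -0.0013, 95% interval -0.78 to 0.78, limma adjusted p = 0.999), and its sign depended on the scaling and the library left out. Rpl26 itself (MSTRG.18513, chromosome 10, 55492404 to 55496012) averaged 256 ± 27.3 FPKM in hyperlipidemic and 183 ± 28.4 FPKM in normal bone, with each hyperlipidemic value above each normal one (log2 change 0.49, limma adjusted p = 0.339). Rpl26-ps1 stood at 0.239, 0.196, 0.0578 and 0.189% of the parent's level in hyperlipidemic libraries, against 13.2, 7.18, 8.02 and 10.8% in normal ones. Rpl26-ps2 stood at 51.9, 57.8, 36.1 and 46.6% of the parent in hyperlipidemic libraries, against 26.8, 73.8, 80.4 and 123% in normal ones. Of the 3 copies, 2 fell, and the interval of the most abundant leaves room for a log2 change of 0.78 in either direction. The difference in change between the copies was not tested.

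**Figure D3:**
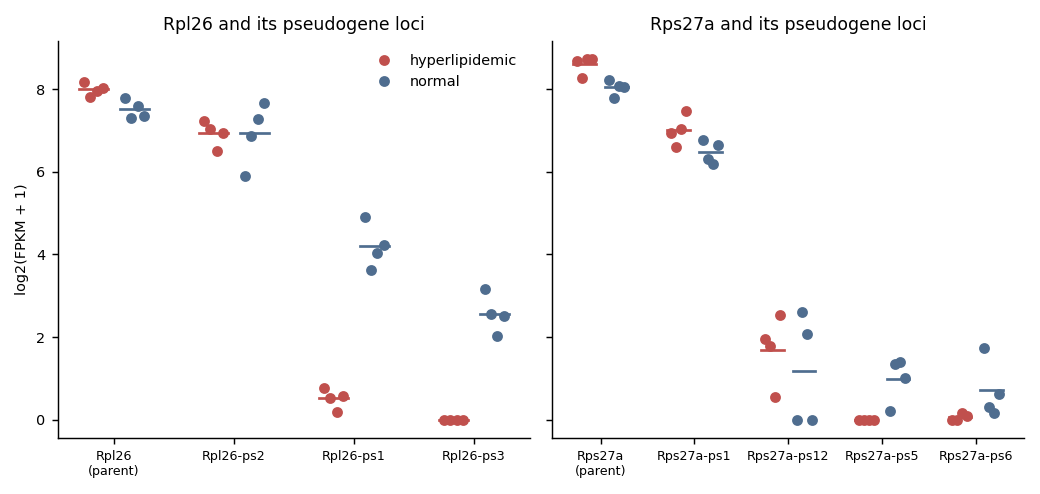
Level as log2(FPKM + 1) of Rpl26 and its 3 pseudogene loci (left) and of Rps27a and its 4 pseudogene loci (right), with 1 point per library, hyperlipidemic left of normal at each locus, and a bar at the group mean of the log2 values. Rpl26-ps1 and Rpl26-ps3 separate the groups, with hyperlipidemic libraries near 0, whereas Rpl26-ps2 and Rps27a-ps1 lie within a few log2 units of their parents in both groups.

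Rpl37-ps1 was the third locus that fell. Rpl37 is a zinc-binding protein of the large ribosomal subunit. Rpl37-ps1 (MSTRG.54965, chromosome 17, 87020089 to 87020382, 294 bp) measured 2.22, 1.19, 0.561 and 0.361 FPKM in hyperlipidemic libraries, against 8.68, 8.03, 9.36 and 16.0 FPKM in normal ones. The highest hyperlipidemic value lay under the lowest normal one. The locus averaged 1.08 ± 0.838 FPKM in hyperlipidemic and 10.5 ± 3.71 FPKM in normal bone (SD, n = 4 each), a 9.72-fold difference between means (log2 change -2.50, SE 0.348, limma adjusted p = 0.00470). The locus named Rpl37 in the table (MSTRG.19482, chromosome 10, 64336200 to 64336546, 347 bp) is itself short. It averaged 117 ± 27.3 FPKM in hyperlipidemic and 86.3 ± 45.1 FPKM in normal bone, with overlap (log2 change 0.54, limma adjusted p = 0.515).

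For these 3 loci the ratio to the parent, as log2((pseudogene + 1)/(parent + 1)), was compared as well. It differed between hyperlipidemic and normal libraries by -4.17 for Rpl26-ps1, by -3.05 for Rpl26-ps3 and by -3.05 for Rpl37-ps1. For Rpl37-ps1 the identity of the parent locus is uncertain, since RefSeq places Rpl37 on another chromosome. Each of the 3 ratios gave p = 0.0286 in a two-sided exact permutation test, not adjusted over the 3 pairs. This is the smallest value that the 70 assignments of 4 against 4 libraries can give. The pairs were taken because their pseudogene locus was called, so these p-values are not independent of the calls and add no support to them.

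Other copies of large-subunit genes were not called. Rpl12-ps1 (498 bp) measured 6.42, 6.83, 19.0 and 20.6 FPKM in hyperlipidemic libraries, against 69.1, 22.7, 21.6 and 23.3 FPKM in normal ones. The groups did not overlap, by a narrow margin in 2 hyperlipidemic libraries (log2 change -1.30, limma adjusted p = 0.300). Rpl34-ps1 (427 bp) measured 9.28, 8.70, 4.86 and 10.3 FPKM in hyperlipidemic libraries, against 8.45, 21.0, 12.7 and 27.3 FPKM in normal ones. Only normal replicate 1 lay among the hyperlipidemic values (log2 change -0.90, limma adjusted p = 0.335). In the same library the parent Rpl34 was at 50.9 FPKM, against 177 or more in each other library.

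The abundant large-subunit copies overlapped between the groups. Rpl6-ps1 (932 bp) measured 74.1, 52.5, 52.1 and 55.5 FPKM in hyperlipidemic libraries, against 63.4, 61.7, 56.6 and 81.2 FPKM in normal ones (log2 change -0.17, limma adjusted p = 0.733). Rpl38-ps3, of only 213 bp, measured 80.3, 46.3, 62.2 and 50.2 FPKM in hyperlipidemic libraries, against 59.5, 37.6, 64.3 and 55.1 FPKM in normal ones (log2 change 0.13, limma adjusted p = 0.8294). Neither order of the groups held in every library, and the sign for Rpl38-ps3 turned to -0.03 after median-of-ratios scaling. Rpl38-ps2, of the same length, had its highest value in a normal library, at 21.2 FPKM, and also its lowest, at 4.69 FPKM (log2 change -0.04, limma adjusted p = 0.976), and Rpl36a-ps2 averaged 31.1 ± 4.57 FPKM in hyperlipidemic and 19.4 ± 13.6 FPKM in normal bone. These last 2 loci, and others outside the naming rule, were picked after their values were seen.

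Among copies of small-subunit genes 0 of 6 tested were called, and among those of large-subunit genes 3 of 10. With 8.54% of short loci lower, these counts are too small to set the subunits apart, and their difference was not tested. Rps27a is made as a fusion with ubiquitin that is later cut off, and 4 of its copies were found here. Rps27a-ps1 (MSTRG.101470, chromosome 5, 138628482 to 138629026, 545 bp) was the second most abundant pseudogene locus and measured 122, 95.9, 131 and 178 FPKM in hyperlipidemic libraries, against 109, 78.4, 71.9 and 99.0 FPKM in normal ones. All hyperlipidemic values but that of replicate 2 lay above all normal values (log2 change 0.54, limma adjusted p = 0.378). It was the 1 locus higher at an unadjusted p under 0.05. The parent Rps27a averaged 393 ± 56.3 FPKM in hyperlipidemic and 265 ± 32.2 FPKM in normal bone, without overlap (log2 change 0.56, limma adjusted p = 0.305). Rps27a-ps1 stood at 29.95, 31.0, 30.6 and 41.7% of its parent in hyperlipidemic libraries, against 36.4, 35.4, 26.5 and 37.1% in normal ones. Its share of the parent's level overlapped between the groups, and the log2 ratio differed by -0.03. Its span lies inside Foxj3, a forkhead transcription factor gene at 5.33 ± 0.931 FPKM in hyperlipidemic and 5.39 ± 3.26 FPKM in normal bone.

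The other Rps27a copies were faint. Rps27a-ps5 (465 bp, X chromosome) was listed at 0 in all hyperlipidemic libraries, against 0.153, 1.53, 1.64 and 1.01 FPKM in normal ones (log2 change -0.99, limma adjusted p = 0.293). Rps27a-ps6 (498 bp) measured 0, 0, 0.110 and 0.0692 FPKM in hyperlipidemic libraries, against 2.35, 0.235, 0.126 and 0.543 FPKM in normal ones, and was under the filter. In both copies each normal value lay above each hyperlipidemic one. Rps27a-ps12 measured 2.84, 2.42, 0.455 and 4.81 FPKM in hyperlipidemic libraries, against 0, 5.07, 3.25 and 0 FPKM in normal ones, a full overlap.

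Rps15-ps2 (MSTRG.111650, chromosome 7, 2961442 to 2961873, 432 bp) depended on 1 library. It measured 0, 0.143, 0 and 0.129 FPKM in hyperlipidemic libraries, against 0, 16.1, 11.7 and 13.1 FPKM in normal ones. Normal replicate 1 was listed at 0, like hyperlipidemic bone, and the 3 other normal libraries lay above 10. The log2 change was -2.80 (limma adjusted p = 0.171) and, without normal replicate 1, -3.77 (limma adjusted p = 3.5e-05). With array quality weights, which let limma give each library its own weight, it was -3.55 (adjusted p = 0.000786). Rps15, the parent, averaged 641 ± 70.4 FPKM in hyperlipidemic and 514 ± 207 FPKM in normal bone (log2 change 0.42, limma adjusted p = 0.586).

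Rps4x-ps9 (972 bp) copies a gene of the small subunit that lies on the X chromosome. It measured 54.9, 40.7, 36.9 and 47.3 FPKM in hyperlipidemic libraries, against 77.2, 38.8, 45.0 and 64.6 FPKM in normal ones, with overlap (log2 change -0.28, limma adjusted p = 0.625, and 0.01 with array quality weights). Rps21-ps1 (343 bp) measured 20.5, 9.95, 18.0 and 15.3 FPKM in hyperlipidemic libraries, against 2.14, 19.7, 5.88 and 15.9 FPKM in normal ones. Its normal values ran both below and among the hyperlipidemic ones (log2 change 0.82, limma adjusted p = 0.521). Rps2-ps1 and Rps2-ps2, both of 598 bp on chromosome 20, stayed under 1 FPKM in every library, while the parent Rps2 averaged 345 ± 37.1 FPKM in hyperlipidemic and 221 ± 46.0 FPKM in normal bone.

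Sec61g-ps1 carries the name of a subunit of the Sec61 channel, through which new proteins enter the endoplasmic reticulum. The locus (MSTRG.97921, chromosome 5, 56751657 to 56753832, 2176 bp) measured 0, 0.234, 0.422 and 0 FPKM in hyperlipidemic libraries, against 3.46, 1.39, 1.40 and 2.89 FPKM in normal ones. The groups did not overlap, and the locus did not pass (log2 change -1.46, limma adjusted p = 0.0821, and 0.0470 without a trend in the prior variance). Each hyperlipidemic value of Sec61g lay above each normal one, with means of 147 ± 42.9 FPKM in hyperlipidemic and 68.7 ± 9.80 FPKM in normal bone. It did not pass either (log2 change 1.04, limma adjusted p = 0.0970, but 0.0290 after quantile normalization and 0.0312 without hyperlipidemic replicate 2).

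Hmgb1, a DNA-bending chromatin protein, has 2 copies found here, and Hmgb1-ps4 stood far above the level of the parent. Hmgb1-ps3 (639 bp, chromosome 7) measured 3.25, 2.56, 2.68 and 4.07 FPKM in hyperlipidemic libraries, against 11.7, 5.20, 5.18 and 4.90 FPKM in normal ones. Each hyperlipidemic value lay under each normal one (log2 change -0.84, limma adjusted p = 0.306). Its 8-library mean was 131% of the parent's, but without normal replicate 1, where the parent was listed at 0, it averaged 3.98 FPKM against 4.31 FPKM for the parent. Hmgb1-ps3 stood at 64.3, 49.4, 70.1 and 103% of the parent in hyperlipidemic libraries, against 118, 114 and 153% in normal replicates 2 to 4. It was above the parent in 5 of the 8 libraries. Hmgb1-ps4 (649 bp, chromosome 1) measured 29.6, 7.69, 83.0 and 66.0 FPKM in hyperlipidemic libraries, against 32.0, 28.8, 54.2 and 36.8 FPKM in normal ones. Its hyperlipidemic values enclosed the normal ones, and leaving out hyperlipidemic replicate 2 turned the log2 change of -0.11 to 0.56 (limma adjusted p = 0.946 with all libraries and 0.529 without it). The parent Hmgb1 was at 5.06, 5.19, 3.82 and 3.97 FPKM in hyperlipidemic libraries, against 0, 4.40, 4.53 and 3.21 FPKM in normal ones, so Hmgb1-ps4 averaged 11.2 times its level. Hmgb1-ps3 lies inside Lrrk2, a kinase gene at 8.82 ± 1.69 FPKM in hyperlipidemic and 10.0 ± 3.25 FPKM in normal bone. Hmgb1-ps4 lies inside Dock8, a guanine nucleotide exchange factor gene at 21.5 ± 1.61 FPKM in hyperlipidemic and 24.2 ± 4.75 FPKM in normal bone.

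A few further loci came close to or above their parents. Zfp780b-ps1 (14833 bp, chromosome 1), from a zinc finger gene, measured 2.49, 1.97, 2.98 and 3.79 FPKM in hyperlipidemic libraries, against 0.932, 1.86, 3.23 and 2.62 FPKM in normal ones (log2 change 0.31, limma adjusted p = 0.691). It was above the parent in all 8 libraries and at 320% of it on 8-library means. Its span was longer than that of the parent (12863 bp), which lies on the same chromosome, and whether it is a processed copy was not tested. Eif3i-ps1 (987 bp), from a subunit gene of translation initiation factor eIF3, averaged 22.8 ± 2.99 FPKM in hyperlipidemic and 25.5 ± 6.10 FPKM in normal bone, with overlap (log2 change -0.13, limma adjusted p = 0.827). Its level was 80.3% of the parent's. Arrb2-ps (643 bp, chromosome 20), from the β-arrestin 2 gene, averaged 13.8 ± 2.32 FPKM in hyperlipidemic and 21.3 ± 7.79 FPKM in normal bone (log2 change -0.54, limma adjusted p = 0.423). The log2 change of Arrb2 itself was -0.50 (limma adjusted p = 0.413), so the change of locus and parent had the same sign and a like size. The span of Arrb2-ps lies inside the locus of RT1-Db2, listed at 0.0889 FPKM in normal replicate 2 and at 0 in every other library.

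The remaining tested loci overlapped between the groups. Ybx1-ps3, named after a nucleic acid binding protein, measured 1.17, 23.3, 18.3 and 1.14 FPKM in hyperlipidemic libraries, against 9.89, 28.2, 19.0 and 31.4 FPKM in normal ones (log2 change -1.64, limma adjusted p = 0.415). Hyperlipidemic replicates 1 and 4 were low and replicates 2 and 3 lay among the normal values. Psme1-ps1, from a proteasome activator gene, owed its normal mean to replicate 1, at 8.29 FPKM, with every other library under 0.3 FPKM. Polr2h-ps1, from an RNA polymerase subunit gene, was highest in hyperlipidemic replicate 4, at 8.96 FPKM, against at most 2.71 FPKM in each other library. Bcl2l1-ps1, Uba2-ps1, Ndufv3-ps1, Esco2-ps1, Esco2-ps2 and Pbp-ps had log2 changes between -0.49 and 0.80 and adjusted p-values of 0.451 or more in limma.

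Of the 14 loci under the filter, 5 were listed at 0 in all hyperlipidemic libraries: Ppid-ps1, Eif6-ps1, Akr1b1-ps1, Sec61-ps and Trub2-ps2. Their highest value in any normal library was 2.19 FPKM, at Ppid-ps1. Cct6a-ps2, from a chaperonin subunit gene, measured 0, 0.0166, 0 and 0 FPKM in hyperlipidemic libraries, against 1.68, 0.213, 0.521 and 1.26 FPKM in normal ones, without overlap. Akr1b1-ps2, Dtx2-ps1, Dppa3-ps1, Dppa3-ps2 and Tgif2-ps1 reached at most 1.15 FPKM in any library, and their groups overlapped. Rps2-ps1 was the 1 pseudogene locus listed at 0 in all normal libraries.

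Most parents had log2 changes above 0, and 1 of them passed the test. Log2 changes lay above 0 at 25 of the 30 parents, with a median of 0.54 against 0.18 over all loci tested, of which 65.0% lay above 0. By limma 1 parent rose and 0 fell, against 0.146% and 1.24% of all loci tested. At an unadjusted p under 0.05, 11 parents were higher and 1 was lower. The share of all loci at that threshold was not counted, so this is no result about the parents. Groups did not overlap at 8 parents that were higher in hyperlipidemic bone and at 0 that were lower, against 4.19% and 3.75% of all loci tested. All 11 parents that encode ribosomal proteins, counting the uncertain locus Rpl37, lay above 0, as deposited and after both rescalings. Of 16 tested copies of such genes, 11 lay below 0 as deposited, 12 after median-of-ratios scaling and 10 after quantile normalization. Loci named as other ribosomal protein genes, with the 11 parents left out, lay above 0 at 54 of 70 tested with a median of 0.37. The copies span at most 972 bp, and their median was -0.23. Over all tested loci of up to 1000 bp the median was -0.24, and 58.7% lay below 0. Of tested loci above 1000 bp, 8169 of 11892 lay above 0. The part of length in the contrast of copies and parents was not tested.

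Rps21, a protein of the small subunit, was the parent that rose, and it was singled out after the values were seen. Rps21 (MSTRG.86596, chromosome 3, 175629374 to 175630048, 675 bp) measured 68.9, 64.5, 59.0 and 59.8 FPKM in hyperlipidemic libraries, against 16.4, 31.2, 30.7 and 26.5 FPKM in normal ones. Each hyperlipidemic value lay far above each normal one, with means of 63.1 ± 4.61 FPKM in hyperlipidemic and 26.2 ± 6.90 FPKM in normal bone (2.41-fold; log2 change 1.27, SE 0.231, limma adjusted p = 0.0224). The call was lost without any 1 hyperlipidemic library (limma adjusted p between 0.0739 and 0.0954), without normal replicate 4 (0.0607), with the replicate number as a block (0.0794) and without a trend in the prior variance (0.0576).

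**Figure D4:**
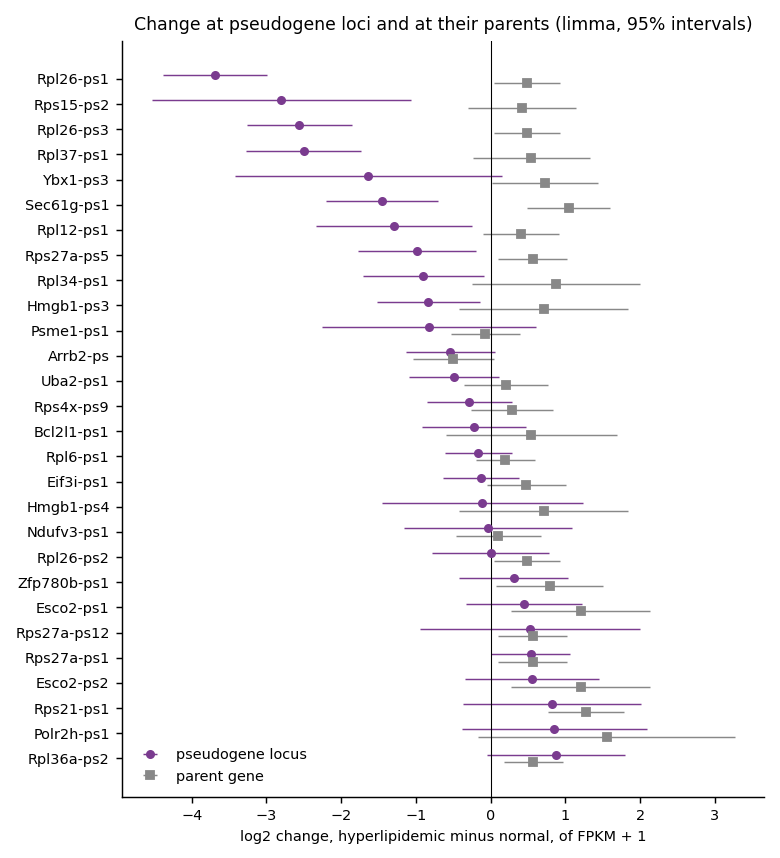
Log2 change, hyperlipidemic minus normal, of FPKM + 1 (horizontal axis, with 95% intervals from limma) at the 28 pseudogene loci (circles) whose locus and parent were both tested, each above the change of its parent (squares). Circles at the top lie far left of 0 while nearly all squares lie right of it, and at the bottom circles and squares fall on the same side.

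Levels were also summed over copies and over parents. The 45 pseudogene loci summed to 626 ± 79.2 FPKM per library in hyperlipidemic and 685 ± 84.0 FPKM in normal bone (SD, n = 4 each), with overlap. They made up 0.115% ± 0.0157 of the gene FPKM in hyperlipidemic and 0.0953% ± 0.0212 in normal libraries. The total gene FPKM per library was 547822 ± 37062 in hyperlipidemic and 745813 ± 177742 in normal bone, so a sum and a share can differ in direction. Without the 6 most abundant loci the sum was 162 ± 12.6 FPKM in hyperlipidemic and 248 ± 15.5 FPKM in normal bone, with ranges of 143 to 171 FPKM in hyperlipidemic and 228 to 263 FPKM in normal libraries. As a share of the gene FPKM it overlapped, at 0.0256 to 0.0338% in hyperlipidemic and 0.0290 to 0.0447% in normal libraries. Leaving out the 3 called loci as well gave 160.2 ± 12.8 FPKM in hyperlipidemic and 214 ± 22.2 FPKM in normal bone, without overlap, but as a share 0.0294% ± 0.00362 in hyperlipidemic and 0.0296% ± 0.00475 in normal libraries, a difference under the spread between libraries. The separation of these sums thus holds for FPKM as deposited and not for shares. The 30 parents summed to 3637 ± 303 FPKM in hyperlipidemic and 2675 ± 292 FPKM in normal bone, again without overlap, and made up 0.587 to 0.743% of the gene FPKM in hyperlipidemic and 0.327 to 0.464% in normal libraries. Pseudogene loci with a parent came to 15.2% ± 1.62 of the summed parents in hyperlipidemic and 23.2% ± 2.26 in normal libraries, with ranges of 14.0 to 17.6% in hyperlipidemic and 19.8 to 24.7% in normal libraries. These sums are descriptions without a test, since the loci were chosen with results of these data known.

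**Figure D5:**
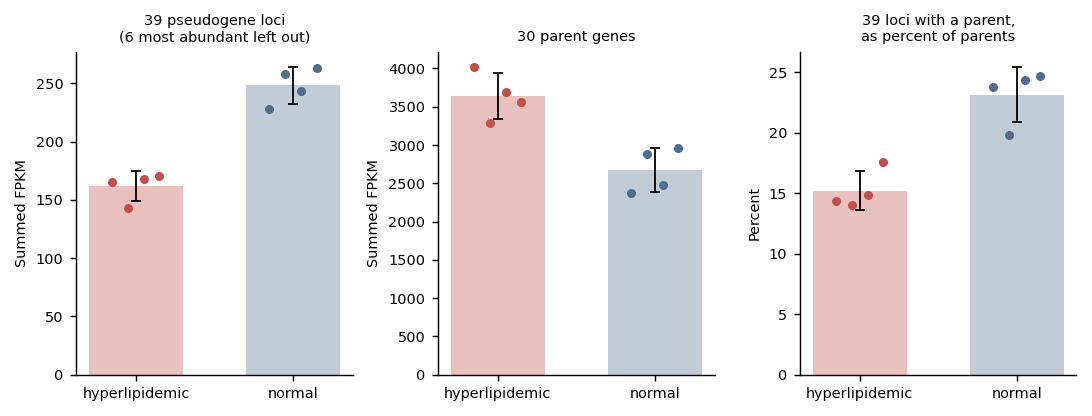
Summed FPKM of the 39 pseudogene loci left without the 6 most abundant (left) and of the 30 parents (middle), and the 39 pseudogene loci with a parent as a percent of their summed parents (right), with hyperlipidemic left of normal. Bars are means from 0, error bars are SD and points are the 4 libraries of each group: hyperlipidemic libraries lie lower in the left and right panels and higher in the middle one, without overlap, though the shares of the gene FPKM behind the left panel overlap.

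Markers of cell types also differed between the groups, and their part in these results was not tested. The 4 osteoblast markers, all above 0, summed to 680 to 1320 FPKM in hyperlipidemic and 1773 to 2374 FPKM in normal libraries. The 3 osteoclast markers summed to 141 to 292 FPKM in hyperlipidemic and 313 to 565 FPKM in normal libraries. The 3 adipocyte markers summed to 7.91 to 65.8 FPKM in hyperlipidemic and 0 to 0.221 FPKM in normal libraries, and the 3 chondrocyte markers to 6.09 to 55.1 FPKM in hyperlipidemic and 0.140 to 2.47 FPKM in normal libraries. None of these 4 marker sums overlapped between the groups. The sums of the 2 erythroid markers found of 4 overlapped, at 6613 to 13590 FPKM in hyperlipidemic and 5706 to 7210 FPKM in normal libraries, as did those of 3 granulocyte, 3 B cell and 4 skeletal muscle markers.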

How the data were processed

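The 4 hyperlipidemic and 4 normal libraries were grouped by the labels, and 0 per-sample columns were left unmatched. Per the labels' protocols, 3 µg of total RNA per library was depleted of ribosomal RNA, and libraries that mark strand by dUTP were read as pairs of 150 bp. The build Rnor_6.0 and the tools HISAT2 2.1.0, StringTie 1.3.3b and bcl2fastq 1.8.4 are named in the submitters' processing notes. No source used here gives the annotation, the treatment of reads that align to several places or the use of strand in counting. The authors deposited FPKM per gene locus and library, with a fold change (ratio of hyperlipidemic over normal), its log2 value, a p-value and a q-value from a test that no source used here describes.

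The deposited FPKM were taken to log2 after adding 1, and loci with a mean of at least 0.5 FPKM were fitted in R 4.3.3 with limma 3.58.1 (empirical Bayes with a trend in the prior variance), hyperlipidemic minus normal, with Benjamini-Hochberg adjustment over all loci tested. Log2 changes are on the log2(FPKM + 1) scale, which understates changes of low loci, and folds are ratios of mean FPKM. Whole reads could not be recovered from the values: among low values at loci under 1200 bp, 71.2 to 97.5% per library were whole multiples (tolerance 0.06) of the best step, and most libraries had several steps about equally good. Parents, lists and markers were matched by symbol. The members and lists were chosen with earlier results of these data known. Loci named were those called, the 10 with the smallest p, the 6 most abundant, the 5 with at least 1 FPKM and the highest level relative to the parent, the most and least abundant copy of parents with 3 or more copies, the 5 whose change differed most from the parent's, and the parents of all these. In a simulated set of 13742 loci, limma called 6 of 100 loci shifted by -1, 62 of 100 shifted by -3 and 2 of 13542 unchanged ones. Alternatives were another pseudocount (0.1), no filter and a filter at 2 FPKM, quantile normalization or median-of-ratios scaling, a replicate block, array quality weights, no trend, only loci of up to 1000 bp, other denominators and parent levels, and each library left out in turn.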

Additional observations from a re-analysis of the deposited data

Results flagged for a closer look

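In 76 groups of 4 libraries, 7 held a library whose gap to the nearest other was larger, relative to the group's range, than Dixon's test allows at 95% for groups of that size. Chance alone flags about 5% of groups, or 1 in 20. Among pseudogene loci, Rpl37-ps1 was highest in normal replicate 4, at 16.0 FPKM against 9.36 FPKM for the next. Rpl12-ps1 was highest in normal replicate 1, at 69.1 FPKM against 23.3 FPKM. Hmgb1-ps3 was highest in the same library, at 11.7 FPKM against 5.20 FPKM. Rpl6-ps1 was highest in hyperlipidemic replicate 1, at 74.1 FPKM against 55.5 FPKM. Among parents, Rps27a was lowest in hyperlipidemic replicate 2, at 309 FPKM against 408 FPKM for the next, and Zfp780b was highest in hyperlipidemic replicate 1, at 1.88 FPKM against 1.09 FPKM. The summed share of the parents in the gene FPKM was highest in normal replicate 1, at 0.464% against 0.350%. Of the 7, 3 concern normal replicate 1.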

How the results depend on the processing

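Rpl26-ps1, Rpl26-ps3 and Rpl37-ps1 stayed called and lower under all 17 alternatives run for each, with log2 changes from -5.12 to -3.35, from -5.63 to -2.36 and from -3.39 to -2.30 and adjusted p-values of at most 0.00203, 0.0181 and 0.0304. The number of pseudogene loci called lower was 3 or 4 under these alternatives, and 2 among the 24 tested loci that overlap no other locus, an alternative chosen after seeing the data. The calls over all loci numbered 191, and 107 with no filter, 151 with the replicate block, 223 with quantile normalization, 284 with array quality weights and 113 to 230 with each library left out in turn. The 1 parent called higher became 2 with quantile normalization, 0 with the replicate block, 0 without a trend, and 0 to 1 with each library left out. The cause of these changes was not tested. The difference in the pseudogene share, 0.0194 points, was 0.04999 points with loci of up to 1000 bp as the denominator and 0.0117 (without normal replicate 2) to 0.0286 points (without normal replicate 1) with a library left out. The median log2 ratio to the parent, -1.95, was -2.15 with a pseudocount of 0.1. Alternatives were followed for the tested pseudogene loci of the naming rule and for Rps21-ps1, not for every uncalled locus. Among those followed, signs reversed for 4 uncalled loci. Rpl26-ps2 was at 0.16 after quantile normalization and from -0.35 to 0.24 with a library left out. Rpl38-ps3 was at -0.034 after median-of-ratios scaling and from -0.027 to 0.24 with a library left out. Rps4x-ps9 was at 0.013 with array weights. Hmgb1-ps4 ranged from -0.53 to 0.56 with a library left out. Whether the replicate numbers pair the libraries is not settled by the labels or by these values. Same-numbered libraries correlated at 0.0257, 0.129, 0.0535 and 0.0107, and libraries of different numbers at -0.132 to 0.0578. Hyperlipidemic replicates 1, 2 and 3 correlated best with their own number and replicate 4 with normal replicate 3. The block kept 3 pseudogene loci called lower. Depth is unknown. In the simulation, where values were floored at 0 FPKM, 6 of 100 shifts of -1 were called, so most changes of that size may be missed here.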
